A study of Mus musculus with 35 samples.

Results

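Lung RNA taken 24 h after 54 µg of NRCWE-044 was compared with lung RNA taken 24 h after 54 µg of NRCWE-043, using the 10 arrays with those titles out of 35 in the series. The 5 NRCWE-044 arrays carry the sample numbers 4, 18, 24, 31 and 34, and the 5 NRCWE-043 arrays the numbers 3, 9, 16, 19 and 22. All mice were female C57BL/6 animals, and each treated mouse received a single dose into the trachea in a volume of 40 µl. NRCWE-043, NRCWE-044 and NRCWE-045 are code names of materials that the series title calls nanomaterials, and the series set out to rank their potency in disturbing lung pathways. The other arrays, 5 per group, were both materials at 18 µg, NRCWE-045 at 18 and 54 µg, and controls at 0 µg, for which the labels do not state what was instilled. Nothing in the labels ties each array to its own mouse, so the p-values speak only of the spread among these samples, which may be technical. The RNA came from random sections of whole lung, in which fewer cells of a type and less RNA per cell cannot be told apart.

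Each value is a log2 ratio of lung RNA (Cy5) to a universal mouse reference RNA (Cy3) on the same spot, and each difference is the NRCWE-044 mean minus the NRCWE-043 mean on that scale. A negative difference therefore stands for a lower level with NRCWE-044. Of 25534 features tested, 15621 were genes with a symbol, and those with an adjusted p under 0.05 in limma (Benjamini-Hochberg over all features) are termed called. Intervals are 95% intervals of that fit. Where a probe was well above background on no array of one material, "at least" marks a bound: the brighter mean of the normalized Cy5 signal against, on each dim array, the lowest signal well above background or the probe's own, whichever was higher.

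When particles reach the lung, epithelial cells and macrophages are known to release chemokines that draw leukocytes, and the lung itself makes acute phase proteins such as serum amyloid A. Heme oxygenase 1, encoded by Hmox1, breaks down heme and is among the best known genes induced by oxidative stress through the factor NRF2. Lung cells also keep a circadian clock. In it BMAL1 (Arntl) and CLOCK switch on genes with an E-box, among them Nr1d1, Nr1d2, the Per and Cry genes and the factors Dbp, Tef and Hlf. The REV-ERB proteins made from Nr1d1 and Nr1d2 in turn repress Arntl and Nfil3 through ROR elements, and DBP, TEF and HLF bind D-boxes, so the 2 arms peak at opposite times of the day.

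Some arrays stood apart from their group. Control array 7 lay nearer the NRCWE-043 mean than the NRCWE-044 mean for 26 of the 26 largest differences outside the clock, against 0 to 2 of 26 for the other 4 control arrays. On these features it went against its label, and values set against the controls are therefore also given without it where they move. Markers of heart muscle and fat differed between arrays of 1 group. The mean log2 ratio of 17 heart genes ran from 0.07 to 1.52 with NRCWE-043 and from 0.04 to 2.00 with NRCWE-044, highest on array 18, and that of 14 fat genes from 0.59 to 3.10 and from 0.53 to 4.13, highest on array 4. None of these genes was called between the materials in limma, and 2 heart genes and 1 fat gene had an unadjusted p under 0.05. The lung label held on all 10 arrays: the surfactant gene Sftpc stood at 7.71 ± 0.36 (SD, n = 5) with NRCWE-043 and 8.24 ± 0.52 (SD, n = 5) with NRCWE-044, far above the reference RNA. Arrays of the same material correlated at 0.940 to 0.973 across features, and arrays of different material at 0.903 to 0.943. The lung channel was well above background for 44.6 to 55.3% of probes on the NRCWE-043 arrays. On the NRCWE-044 arrays it was so for 44.2 to 69.3%, highest on array 24, where the median Cy5 signal was also the highest, at 230. The number of arrays limits the precision.

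With NRCWE-044, 1400 features were higher and 554 lower than with NRCWE-043, together 1954 of 25534 (7.65%, of which 5.48% higher and 2.17% lower). Among genes with a symbol, 542 were higher and 371 lower. The median size of the called differences was 0.60, 375 of them were at least 2-fold and 83 at least 4-fold, and the median over all features was -0.01. On 1581 of the 1954 called features the 5 arrays of one material all lay above the 5 of the other, as they did on 9.04% of all features tested. Without arrays 4, 18 and 34, which had the most heart or fat RNA of the NRCWE-044 arrays, 663 features were called, 627 of them among the 1954. That fit set only arrays 24 and 31 of NRCWE-044 against all 5 of NRCWE-043, so it also had less precision. NRCWE-043 arrays 9 (mean of the fat genes 3.10) and 16 (mean of the heart genes 1.52) were kept. With the heart and fat means as covariates on all arrays, 1824 features were called. With slide as a fixed block 2048 features were called, 1660 of them among the 1954.

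Of the 42 gene lists, those of the circadian clock held the largest shares of called genes. The promoters below, from RefSeq on GRCm38.p6 and written 5′ to 3′ from 250 bases before to 50 after the start of transcription, belong to 3 of the 9 called clock genes and hold the letters that clock factors are known to bind. Capitals mark the E-box CACGTG in Tef, the D-box TTANGTAA in Per3 and the ROR element (AANT followed directly by AGGTCA) in Arntl, each searched on both strands.
Tef (chr15:81811164-81811463, plus strand): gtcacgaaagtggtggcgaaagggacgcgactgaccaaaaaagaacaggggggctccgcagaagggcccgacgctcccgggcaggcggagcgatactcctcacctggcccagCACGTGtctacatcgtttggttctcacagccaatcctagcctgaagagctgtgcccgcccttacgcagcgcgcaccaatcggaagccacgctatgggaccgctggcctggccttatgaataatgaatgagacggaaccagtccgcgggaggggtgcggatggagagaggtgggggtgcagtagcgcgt
Per3 (chr4:151044616-151044915, minus strand): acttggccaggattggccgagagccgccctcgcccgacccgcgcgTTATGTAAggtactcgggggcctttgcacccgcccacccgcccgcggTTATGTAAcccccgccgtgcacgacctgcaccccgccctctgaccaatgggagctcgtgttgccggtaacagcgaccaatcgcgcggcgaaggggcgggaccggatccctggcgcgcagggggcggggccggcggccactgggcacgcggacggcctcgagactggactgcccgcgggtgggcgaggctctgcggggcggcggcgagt
Arntl (chr7:113207261-113207560, plus strand): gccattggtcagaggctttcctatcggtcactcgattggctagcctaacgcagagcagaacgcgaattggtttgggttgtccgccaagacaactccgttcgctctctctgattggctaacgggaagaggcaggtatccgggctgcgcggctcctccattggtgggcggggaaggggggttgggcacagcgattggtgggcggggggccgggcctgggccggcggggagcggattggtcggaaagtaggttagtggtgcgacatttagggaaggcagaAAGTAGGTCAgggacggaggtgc
Of all 32851 promoters of this length, 7.15% held the E-box, 2.32% the D-box and 0.219% the ROR element. Of the 8 called clock genes with a promoter in the table, 1 held each motif. The windows of Dbp, Nr1d1, Nr1d2, Hlf and Nfil3 held none of the 3 in these letters. Arntl and Tef have 2 windows each, and the second is shown. In Arntl only that window holds the ROR element, and in Tef both windows hold the E-box.

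The labels do not state the hour of instillation or of collection, so for clock genes material and time of day cannot be told apart. In the E-box arm, 6 of 13 genes were lower with NRCWE-044 and 0 were higher. The median difference was -0.50 against -0.01 over all features, and all 13 differences were negative. Dbp, a factor that drives daily rhythms of metabolic genes, stood at -2.03, -1.87, -2.53, -2.88 and -2.12 on the 5 NRCWE-044 arrays and at 1.46, 1.62, 1.63, 1.92 and 0.89 on the 5 NRCWE-043 arrays. The groups lay far apart, and the difference was -3.79 (SE 0.63, adjusted p = 8.1e-05). A second Dbp probe gave -3.91 (p-values of second probes are adjusted over all tested probes; here adjusted p = 6e-05). Nr1d1, which encodes REV-ERB alpha, ran from -1.96 to -1.52 with NRCWE-044 and from 0.33 to 1.74 with NRCWE-043, again without overlap, at a difference of -2.93 (SE 0.43, adjusted p = 1.6e-05). Its relative Nr1d2 stood at -0.40, -0.37, -1.51, -1.40 and -0.90 with NRCWE-044 and at 1.34, 1.44, 1.26, 1.45 and 1.32 with NRCWE-043. All 5 arrays lay lower with NRCWE-044, at a difference of -2.27 (SE 0.38, adjusted p = 7.5e-05). Tef, a relative of Dbp whose promoter is printed above, differed by -1.14 (SE 0.22, adjusted p = 0.00057). Hlf at -0.91 (adjusted p = 0.0053) and Per3 at -0.77 (adjusted p = 0.043), a period gene whose call was lost under 13 of 29 alternatives, are named here after their values were seen. The period genes Per1 at -0.50 (adjusted p = 0.18) and Per2 at -0.21 (adjusted p = 0.7) were not called, nor were the repressors Cry2 at -0.23 (adjusted p = 0.48) and Ciart at -0.35 (adjusted p = 0.096), also named after their values were seen.

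The opposite arm ran the other way: 3 of its 5 measured genes were higher with NRCWE-044 and 0 lower, against 5.48% of all features higher. Arntl, the gene of BMAL1, stood at -0.06, 0.18, 1.09, 0.87 and 0.63 with NRCWE-044 and at -0.99, -1.60, -1.38, -1.23 and -1.97 with NRCWE-043. The groups did not overlap, and the difference was 1.97 (SE 0.39, adjusted p = 0.00075). Nfil3, a repressor that competes with DBP for D-boxes, differed by 1.20 (SE 0.23, adjusted p = 0.00048). The mean of the E-box arm was 1.03 to 1.19 on the NRCWE-043 arrays and -0.07 to 0.18 on the NRCWE-044 arrays, and that of the Bmal1 arm -0.38 to -0.10 and 0.47 to 0.72, so neither overlapped. The controls spread over both ranges, from 0.02 to 1.5 in the E-box arm. Dbp alone stood at -1.96, 2.56, 0.79, 2.71 and -2.67 on control arrays 2, 7, 15, 29 and 30, so the controls spanned almost all the values of both materials. Of the 9 called clock genes, control arrays 7 and 29 were nearer the NRCWE-043 mean in 9, array 15 in 8, array 2 in 1 and array 30 in 0. With the E-box mean minus the Bmal1 mean as a covariate, which separates the arrays of both materials completely, 18 features were called in place of 1954. Hmox1 (-2.63), Ulk3 (1.71) and the locus on chromosome 5 described below were among the 18. The clock genes are part of this covariate, so the loss of their own calls was built in. For other features that lost their call, clock phase and material cannot be told apart on the 10 arrays compared. Of the 26 largest differences outside the clock, 2 lay nearer the NRCWE-043 mean on control array 2, 26 on array 7, 2 on array 15, 1 on array 29 and 0 on array 30. Whether clock phase accounts for the lost calls was not tested.

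**Figure D1:**
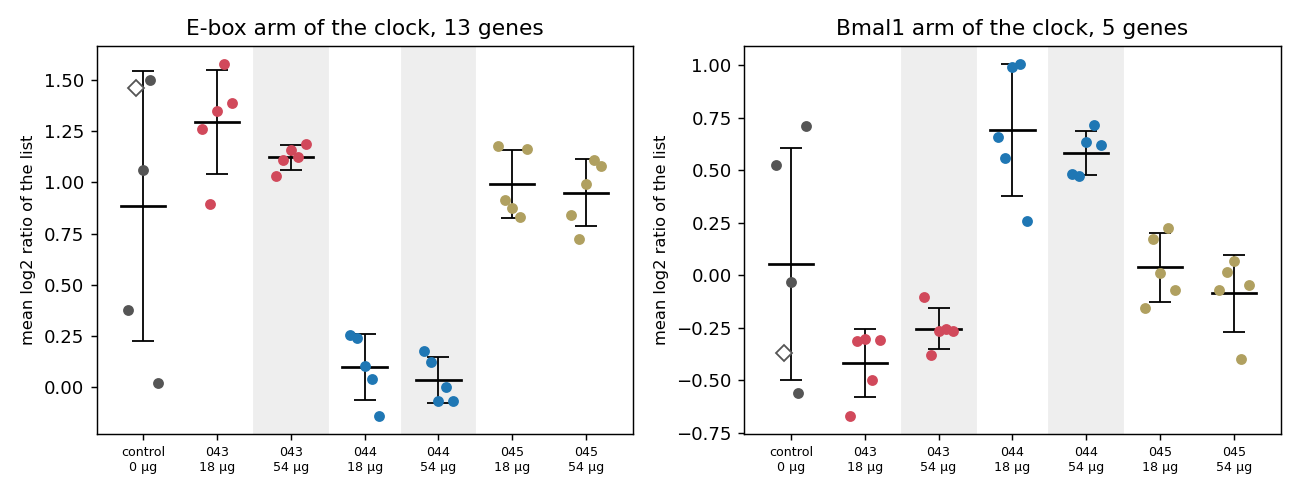
Mean log2 ratio of the E-box arm (left, 13 genes) and the Bmal1 arm (right, 5 genes) of the clock on each of the 35 arrays; points are arrays, lines and bars the mean ± SD of 5 arrays, the open diamond is control array 7, and both 54 µg groups are shaded. The NRCWE-043 arrays lie at 1.03 to 1.19 and the NRCWE-044 arrays at -0.07 to 0.18 in the E-box arm, and the controls spread from 0.02 to 1.5.

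Hmox1 gave the second largest negative difference among genes with a symbol. It stood at -3.31, -3.71, -3.36, -3.53 and -3.53 with NRCWE-044 and at -0.60, -0.64, -0.12, -0.82 and -0.25 with NRCWE-043. The NRCWE-044 arrays were all lower, at a difference of -3.0 (SE 0.32, adjusted p = 1.1e-07), and on the 3 shared slides the difference was -2.71, -3.24 and -3.11. NRCWE-043 was above the controls by 2.71 (adjusted p = 4e-06) and NRCWE-044 differed from them by -0.29 (adjusted p = 0.7); without control array 7, which stood at -1.43 while the other 4 controls ran from -4.07 to -3.21, these were 3.15 and 0.15. A dimmer Hmox1 probe showed a smaller difference of -0.47 (adjusted p = 0.18) at 54 µg and was called at 18 µg, at -0.97 (adjusted p = 0.0016).

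Of 28 NRF2 targets measured, 2 were lower with NRCWE-044 (Hmox1 and Tkt), 1 was higher (Cat), beside 2.17% lower and 5.48% higher over all features, and the median was -0.02. Tkt, transketolase of the pentose phosphate pathway, differed by -0.64 (SE 0.17, adjusted p = 0.016), and Cat, the peroxide-degrading enzyme catalase, by 0.89 (SE 0.20, adjusted p = 0.0022), though a second Cat probe gave -0.53 (adjusted p = 0.30). Among well known NRF2 targets Nqo1 was at -0.23 (95% interval -0.85 to 0.38, adjusted p = 0.77), Gclm at 0.05 (95% interval -0.14 to 0.25, adjusted p = 0.85) and Srxn1 at 0.06 (95% interval -0.17 to 0.29, adjusted p = 0.85), all 3 named after their values were seen. In heme and iron handling Hmox1 was the only call among 28 genes, at a median of -0.02. Bach1, the repressor of Hmox1, was at -0.38 (95% interval -0.63 to -0.12, adjusted p = 0.057) and is also named after its value was seen. The zinc-binding metallothionein gene Mt2 was at 0.70 (95% interval -0.07 to 1.48, adjusted p = 0.34), and among 10 genes of metallothioneins and zinc transport 1, the transporter Slc30a4, was higher, by 0.41 (SE 0.12, adjusted p = 0.019), a call lost under 8 of 29 alternatives.

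**Figure D2:**
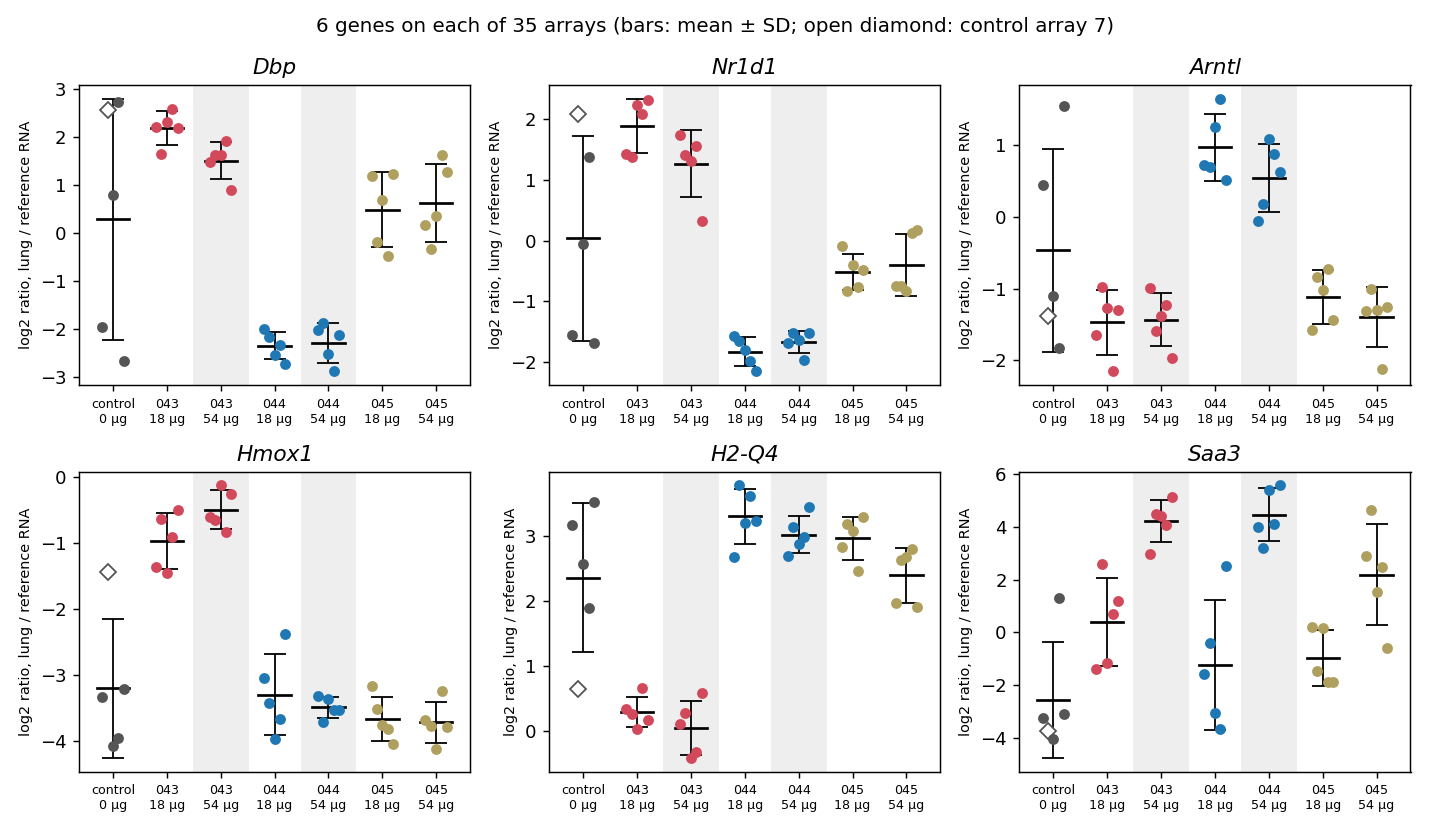
Log2 ratio of lung to reference RNA for 6 genes on each of the 35 arrays; points are arrays, lines and bars the mean ± SD of 5 arrays, the open diamond is control array 7, and both 54 µg groups are shaded. Dbp, Nr1d1, Arntl, Hmox1 and H2-Q4 separate the NRCWE-043 from the NRCWE-044 arrays at both doses, whereas Saa3 lies at 4.22 ± 0.79 and 4.46 ± 1.01 at 54 µg.

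The largest positive difference of a gene with a symbol was that of H2-Q4, a class I histocompatibility gene on chromosome 17 with near-identical neighbours, which a probe may not tell apart. It stood at 2.69, 3.13, 2.87, 2.98 and 3.44 with NRCWE-044 and at 0.11, 0.29, -0.41, -0.31 and 0.58 with NRCWE-043. The 2 groups were separated by a wide gap, and the difference was 2.97 (SE 0.32, adjusted p = 1.8e-07). NRCWE-044 lay close to the controls, at 0.66 (adjusted p = 0.25), and NRCWE-043 below them, at -2.31 (adjusted p = 3.2e-05), or at 0.23 and -2.74 without control array 7. Of 23 genes of class I presentation, H2-Q4 among them, 2 were higher and 2 lower, beside 5.48% higher and 2.17% lower over all features, at a median of 0.08. H2-Q6 was higher by 0.46 (SE 0.14, adjusted p = 0.03), while Tap2, which moves peptides into the endoplasmic reticulum, differed by -0.61 (SE 0.17, adjusted p = 0.017) and Erap1, which trims them there, by -0.40 (SE 0.12, adjusted p = 0.035). Among 10 class II genes, 2 were higher: Ciita, the master regulator of the set, and the chain gene H2-Eb1 by 0.51 (SE 0.15, adjusted p = 0.029). Ciita was not well above background on any NRCWE-043 array and was on all 5 NRCWE-044 arrays. Its fitted difference of the log2 ratios was 0.46 (adjusted p = 0.012). The bound from the Cy5 signal alone, at least 1.51-fold, was larger than this fitted difference, so it is no lower limit for it. The Ciita call was lost under 5 of 29 alternatives, among them a 1.5-fold minimum and the Cy5 channel alone. Of 29 alternatives, 14 ended the call of H2-Q6, 14 that of Erap1 and 13 that of H2-Eb1.

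The sulfate carrier gene Slc26a1 followed at 2.91 (SE 0.36, adjusted p = 1.2e-06), with 3.08, 3.06, 1.98, 2.35 and 2.87 on the NRCWE-044 arrays and -0.30, 0.00, -0.35, -0.66 and 0.11 on the NRCWE-043 arrays. Every NRCWE-044 array was higher than every NRCWE-043 array. The 15 largest positive differences ran from 1.97 (Arntl) to 2.97 and included the autophagy kinase Ulk3 at 2.35, the scaffold Pip5kl1 at 2.28, the membrane-anchor enzyme Pign at 2.17, the centrosome gene Sfi1 at 2.15, the synaptic vesicle gene Cplx2 at 2.07, the angiogenesis inhibitor Vash1 at 2.05, the ubiquitin ligase Marchf1 at 2.05 and the chondrocyte factor Sox5 at 1.99. Less well described were Gm10375 at 2.55, Fbxl12os at 2.54, BC061237 (described next) and 2810459M11Rik at 2.11. BC061237 was not well above background on any NRCWE-043 array and was on all 5 NRCWE-044 arrays, at least 5.29-fold higher (fitted adjusted p = 6.5e-07).

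For several of these genes a second probe gave another answer. Ulk3 had a second probe at -0.04 (adjusted p = 0.91), Marchf1 one at -0.25 (adjusted p = 0.70), and Vash1 had 2 bright probes at 2.05 and 2.04 and a dim one at 0.01. In Cplx2, 2 bright probes gave 2.07 and 2.08, another 0.50, and the dimmest was called the other way at -0.46. Over all 281 called genes with further tested probes, 234 of the 336 further probes had the same sign as the brightest, 52 of them called, and 7 were called with the opposite sign. The median ratio of a further probe to the brightest was 0.16.

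Outside the clock, the largest negative difference after Hmox1 was that of Epha1. Epha1, an ephrin receptor of epithelia, stood at -0.21, 0.07, 0.15, -0.41 and -0.14 with NRCWE-044 and at 1.65, 1.97, 1.82, 1.88 and 2.08 with NRCWE-043. The gap between the groups was far wider than their spread, and the difference was -1.98 (SE 0.24, adjusted p = 7.5e-07). Gm5176 differed by -1.98, Lamtor2, a lysosomal adaptor for growth signalling, by -1.75, and the transcription cofactor Sertad3 by -1.73. Then came the meiosis gene Tex11 at -1.56, the oxysterol hydroxylase Cyp39a1 at -1.40, nucleolin (Ncl) at -1.37, the mesothelial gene Lrrn4 at -1.29, the signalling adaptor Tifa at -1.27, Bax at -1.27 and the recombination factor Swi5 at -1.15. A second Ncl probe gave -0.35 (adjusted p = 0.076), and a second Swi5 probe -1.13 (adjusted p = 0.00067). Bax, which drives cell death at mitochondria and is a target of p53, stood at -2.18, -1.41, -2.26, -1.88 and -1.45 with NRCWE-044 and -0.58, -0.65, -0.50, -0.55 and -0.57 with NRCWE-043, where it hardly varied. Among 18 p53 targets 1 other was called, in the opposite direction: the cell-cycle inhibitor Cdkn1a, at 1.38 (SE 0.34, adjusted p = 0.0071), with a second probe at 0.15 (adjusted p = 0.71). The p53 target Bbc3 was at -0.36 (95% interval -0.60 to -0.12, adjusted p = 0.053), and the list's median was -0.08.

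The features with the largest differences of all had no gene symbol, and they are named here after their values were seen. A locus at chr5:15146475-15170100 on mm9, forward strand, stood at 2.39, 2.60, 2.31, 2.61 and 3.00 with NRCWE-044 and at -3.79, -4.04, -4.28, -4.43 and -4.73 with NRCWE-043. It was not well above background on any NRCWE-043 array and was on every NRCWE-044 array, at least 104.2-fold higher (fitted adjusted p = 6.7e-09). On the controls it stood at 2.19, -3.09, 2.00, 1.69 and 2.83 for arrays 2, 7, 15, 29 and 30, so control array 7 alone was low among the controls. The accession ENSMUST00000099050 showed 3.86, 4.33, 3.95, 4.02 and 3.54 with NRCWE-044 and -2.32, -2.52, -3.34, -3.48 and -2.99 with NRCWE-043. It too was well above background on no NRCWE-043 array and on all 5 NRCWE-044 arrays, at least 33.65-fold higher (fitted adjusted p = 3.1e-08). Between positions 14921737 and 15223375 of chromosome 5, 11 loci were tested and 8 were called, all higher.

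Features without a symbol were called more often than genes, 1041 of 9913 (10.5%) against 913 of 15621 (5.84%), and 858 of the 1041 were higher with NRCWE-044. Loci given only as coordinates gave 303 higher and 54 lower among 3369 tested. Of the 1954 called features, 387 were well above background on 0 of 5 NRCWE-043 arrays and 4 on 0 of 5 NRCWE-044 arrays, so that one side of their fitted difference is only a bound. The same counts over all features tested are not given here. Probes well above background reached 69.3% on an NRCWE-044 array and at most 55.3% with NRCWE-043. Whether that bears on these counts was not tested. On the 1248 called features that were well above background on all 10 arrays, 749 were higher and 499 lower. Among genes with a symbol, calls were spread over the chromosomes, at 4.51 to 7.65% of those on each chromosome counted. Loci given only as coordinates, such as those described above, were left out of these shares.

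**Figure D3:**
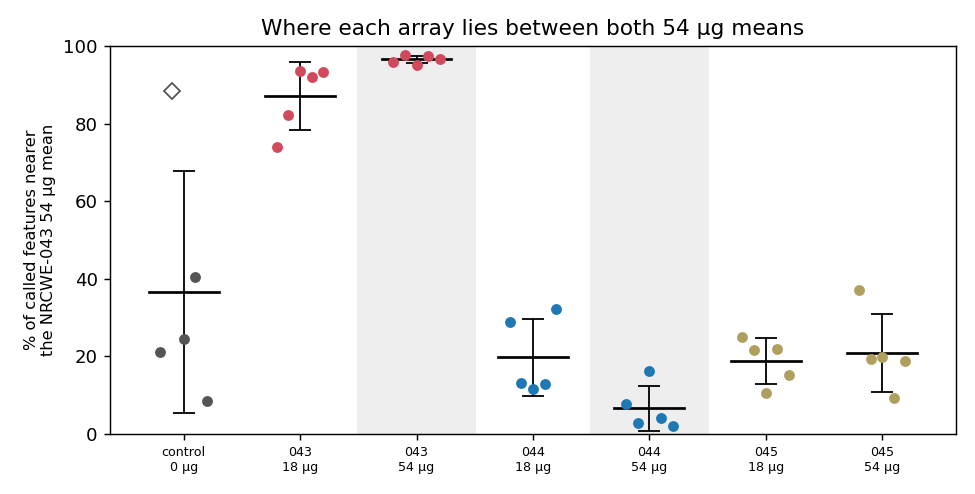
Share of the 1954 called features for which each of the 35 arrays lay nearer the NRCWE-043 mean than the NRCWE-044 mean at 54 µg, in percent; points are arrays, lines and bars the mean ± SD of 5 arrays, the open diamond is control array 7, and both 54 µg groups, whose means define the measure, are shaded. Control array 7 lies at 88.4% and the other 4 controls at 8.46 to 40.5%.

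Control array 7 was thus close to the NRCWE-043 arrays on the features called here, at 88.4%, as the plot of shares by array shows. All 5 arrays of NRCWE-043 at 18 µg had 24 to 26 of the 26 largest differences outside the clock nearer the NRCWE-043 mean. The arrays of NRCWE-044 at 18 µg had 0 to 7, and the 10 arrays of NRCWE-045 had 0 to 3. In the clock NRCWE-045 was closer to NRCWE-043, with 6 to 8 of 9 genes. For H2-Q4, NRCWE-045 at 54 µg ran from 1.91 to 2.81, and for Hmox1 from -4.11 to -3.24, both next to NRCWE-044. NRCWE-044 against NRCWE-045 at 54 µg gave 0 called features in limma, with 1543 at an unadjusted p under 0.05, and NRCWE-045 against NRCWE-043 gave 1377 (5.39%, of which 3.88% were higher). These comparisons share arrays with the main one.

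In the acute phase, chemokine, interleukin, NF-kB, interferon and complement lists, Lbp and Cxcl5 were the calls between the materials, beside 7.65% over all features. Saa3, the serum amyloid A gene of inflamed lung, stood at 4.01, 3.20, 5.40, 4.11 and 5.59 with NRCWE-044 and at 2.99, 4.48, 4.41, 4.08 and 5.16 with NRCWE-043. The groups overlapped, and the difference was 0.24 (95% interval -1.78 to 2.26, adjusted p = 0.95). Against the controls both materials were higher, by 7.03 with NRCWE-044 and 6.80 with NRCWE-043 (adjusted p = 5e-05 and 5.1e-05), comparisons that share the 5 control arrays. Against the controls 1528 features (5.98%, of which 3.94% higher) were called with NRCWE-044 and 2623 (10.3%, of which 5.35% higher and 4.92% lower) with NRCWE-043, or 967 (3.79%) and 3116 (12.2%) without control array 7. Of 21 acute phase genes, 14 were higher than control with NRCWE-044 and 11 with NRCWE-043, or 11 and 11 without control array 7, and 1 was called between the materials: Lbp, which binds bacterial lipopolysaccharide, at 0.39 (SE 0.10, adjusted p = 0.012), lost under 8 of 29 alternatives. The list's median difference was 0.09. Saa1 was at 0.01 (95% interval -1.19 to 1.22, adjusted p = 1) and the glycoprotein gene Orm2 at -0.63 (95% interval -1.45 to 0.18, adjusted p = 0.44).

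Among CC chemokines, which draw monocytes and other leukocytes, 10 of 15 were higher than control with NRCWE-044 and 9 with NRCWE-043, and 0 of 15 were called between the materials in limma, nor did any reach an unadjusted p under 0.05. Ccl2, which draws monocytes, stood at -2.05, -1.80, -1.34, -2.51 and -0.89 with NRCWE-044 and at -2.35, -1.89, -1.40, -1.67 and -1.92 with NRCWE-043, at a difference of 0.13 (95% interval -0.67 to 0.93, adjusted p = 0.92). Ccl7 was at 0.01 (95% interval -0.82 to 0.84, adjusted p = 0.99), Ccl8 at 0.62 (95% interval -0.14 to 1.39, adjusted p = 0.41), Ccl17 at 0.75 (95% interval -0.16 to 1.65, adjusted p = 0.41) and the eosinophil attractant Ccl24 at 0.78 (95% interval -0.57 to 2.12, adjusted p = 0.61). The median over the 15 was 0.13.

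The neutrophil attractant Cxcl5 was the 1 CXC chemokine of 13 that was called, at 1.97 (SE 0.57, adjusted p = 0.025). It stood at -0.78, 0.13, 0.63, 0.04 and 0.33 with NRCWE-044 and at -0.92, -2.30, -2.19, -1.55 and -2.51 with NRCWE-043. All NRCWE-044 arrays lay above all NRCWE-043 arrays, though the lowest of the former and the highest of the latter nearly met, and on 1 of the 3 shared slides the difference was only 0.15. The call was lost under 9 of 29 alternatives. The other neutrophil attractant Cxcl1 was at 0.49 (95% interval -0.33 to 1.30, adjusted p = 0.6) and the interferon-induced Cxcl10 at 0.07 (95% interval -0.88 to 1.02, adjusted p = 0.97). The median over the 13 was 0.30.

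No gene of the interleukin-1 and interleukin-6 axis (22), of NF-kB feedback (18), of the interferon response (31), of complement (20), of cholesterol synthesis (23), of the oxysterol list (11) or of the cell cycle (22) was called between the materials in limma. At an unadjusted p under 0.05 there were 0, 2, 7, 4, 2, 1 and 0. Il1b was at -0.34 (95% interval -0.93 to 0.25, adjusted p = 0.61), Il6 at -0.20 (95% interval -0.74 to 0.35, adjusted p = 0.79), Il18 at -0.44 (95% interval -0.90 to 0.02, adjusted p = 0.29) and the interleukin-33 receptor Il1rl1 at 0.49 (95% interval -0.01 to 0.99, adjusted p = 0.28). In the interferon list 27 of 31 differences were positive with a median of 0.28, 23 genes were higher than control with NRCWE-044 and 17 with NRCWE-043, or 22 and 15 without control array 7, and values ran from -0.84 (Bst2, which tethers viruses, adjusted p = 0.071) to 0.52 (Oas1a, an RNA sensor, adjusted p = 0.52). Isg15 was at -0.22 (95% interval -0.93 to 0.50, adjusted p = 0.83) and the interferon regulator Irf7 at 0.42 (95% interval -0.08 to 0.91, adjusted p = 0.39). The NF-kB inhibitor gene Nfkbie was at 0.47 (95% interval 0.10 to 0.84, adjusted p = 0.13) and the mitochondrial dismutase Sod2 at 0.28 (95% interval 0.01 to 0.54, adjusted p = 0.24). The complement genes Cfd, at 0.47 (95% interval -2.13 to 3.07, adjusted p = 0.91), and C1qc, at 0.41 (95% interval 0.00 to 0.83, adjusted p = 0.27), had the largest differences of their list, and fat tissue also makes Cfd. Cholesterol genes were higher than control in 9 of 23 with NRCWE-044 and 11 with NRCWE-043, or 6 and 10 without control array 7, with a median difference between the materials of -0.03; the largest were the transfer gene Stard4 at -0.42 (95% interval -0.76 to -0.09, adjusted p = 0.13) and the enzyme Hsd17b7 at -0.30 (95% interval -0.63 to 0.02, adjusted p = 0.32). The oxysterol enzyme Cyp7b1 was at 0.54 (95% interval -0.02 to 1.11, adjusted p = 0.3) and the oxysterol receptor Gpr183 at -0.35 (95% interval -0.68 to -0.03, adjusted p = 0.22). The oxysterol hydroxylase Cyp39a1, called at -1.40 as given above, is not a member of this list. The proliferation genes Top2a and Kif11 were at 0.38 (95% interval -0.21 to 0.97, adjusted p = 0.56) and 0.33 (95% interval -0.11 to 0.78, adjusted p = 0.47).

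**Figure D4:**
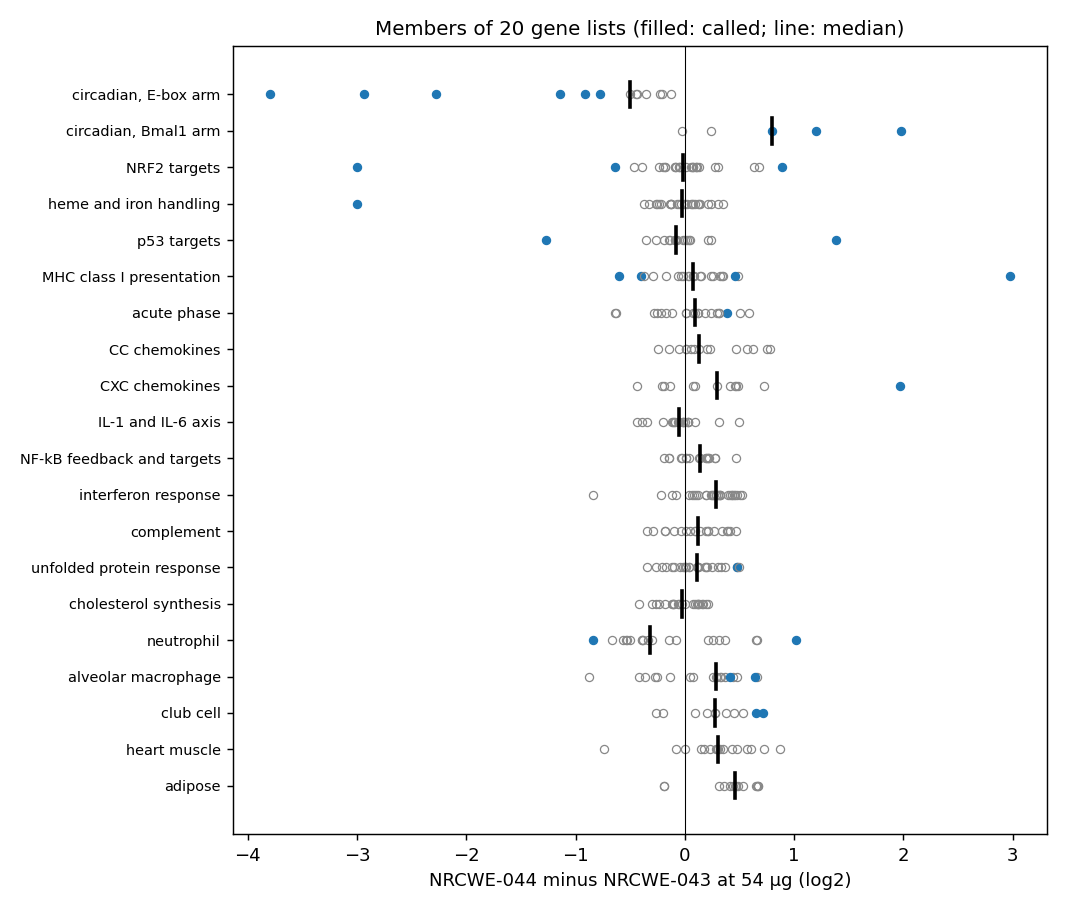
Difference NRCWE-044 minus NRCWE-043 at 54 µg (log2) of every measured member of 20 gene lists; filled points are called genes, open points are not, and black lines are list medians. The E-box arm has a median of -0.50, 3 of the 5 genes of the Bmal1 arm are filled, and the medians of the acute phase, CC chemokine and complement lists are 0.09, 0.13 and 0.12.

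The stress, matrix, xenobiotic and macrophage activation lists held 0 to 2 called genes each, beside 7.65% of all features called (5.48% higher and 2.17% lower). Ier3, an immediate early gene that limits cell death, was lower, at a difference of -1.04 (SE 0.23, adjusted p = 0.0023), and was the 1 call among 19 immediate early genes, whose median was -0.16. Hyou1, a chaperone of the endoplasmic reticulum, was higher by 0.48 (SE 0.11, adjusted p = 0.0023), 1 of 27 genes of the unfolded protein response. Por, which passes electrons to cytochrome P450 enzymes, was lower, at a difference of -0.65 (SE 0.14, adjusted p = 0.0015), 1 of 18 xenobiotic genes, while Cyp1a1, the classical target of the aryl hydrocarbon receptor, was at 0.18 (95% interval -0.31 to 0.68, adjusted p = 0.78) and the glutathione transferase Gsta2 at -0.47 (95% interval -1.21 to 0.28, adjusted p = 0.58). No heat shock chaperone of 18 was called at 54 µg in limma (2 at an unadjusted p under 0.05), with Hspb1 at 0.49 (95% interval 0.11 to 0.88, adjusted p = 0.12) and Hsp90ab1 at 0.37 (95% interval 0.00 to 0.73, adjusted p = 0.27). Of 27 matrix and protease genes, the gelatinase Mmp2 was higher by 0.61 (SE 0.17, adjusted p = 0.018) and the inhibitor Timp2 lower, at a difference of -0.47 (SE 0.14, adjusted p = 0.04), with a second Timp2 probe at 0.17 (adjusted p = 0.41) and the Timp2 call lost under 15 of 29 alternatives. Timp1, a marker of lung repair, was at 0.06 (95% interval -1.09 to 1.21, adjusted p = 0.98). Among 14 genes of alternative macrophage activation 1 was called, the interleukin-13 receptor chain Il13ra1 at -0.35 (SE 0.10, adjusted p = 0.031), lost under 12 of 29 alternatives, and Arg1 was at 0.04 (95% interval -0.66 to 0.75, adjusted p = 0.98).

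The cell type lists held 0 to 2 called genes each, beside 7.65% of all features called (5.48% higher and 2.17% lower). In neutrophils, of 20 markers the growth factor receptor Csf3r was higher by 1.01 (SE 0.14, adjusted p = 4.2e-06) and the chemokine receptor Cxcr2 lower, at a difference of -0.84 (SE 0.22, adjusted p = 0.014), with a median of -0.32 and Lcn2 at 0.31 (95% interval -0.40 to 1.02, adjusted p = 0.73). In monocytes and interstitial macrophages, of 16 markers the integrin Itgam was higher by 1.76 (SE 0.22, adjusted p = 1e-06) and F13a1 lower, at a difference of -0.60 (SE 0.18, adjusted p = 0.033), but 2 dimmer Itgam probes gave 0.05 and -0.12, neither called. Alveolar macrophage markers included 2 higher of 19, Ear2 by 0.64 (SE 0.19, adjusted p = 0.032) and the lipase Lpl by 0.41 (SE 0.12, adjusted p = 0.032), with a median of 0.29. Siglech, a receptor of plasmacytoid dendritic cells, was higher by 1.06 (SE 0.15, adjusted p = 6.4e-06), with a second probe at -0.08 (adjusted p = 0.88), as 1 of 13 dendritic, eosinophil and mast cell markers. Of 14 B and plasma cell markers 2 were higher, Jchain, which joins antibody units, by 0.98 (SE 0.23, adjusted p = 0.004) and the receptor Cd22 by 0.68 (SE 0.21, adjusted p = 0.035), although the median was -0.22. Of 29 alternatives, 16 ended the call of Ear2, 16 that of Lpl, 11 that of F13a1 and 11 that of Cd22. Among 21 T and NK cell markers 0 were called in limma (4 at an unadjusted p under 0.05), with Tbx21 at -0.57 (95% interval -1.02 to -0.12, adjusted p = 0.13) and Cd3d at -0.51 (95% interval -0.95 to -0.07, adjusted p = 0.18).

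In the airways the club cell secretory gene Scgb1a1 was at 7.59, 7.97, 7.44, 8.67 and 8.01 with NRCWE-044 and at 6.88, 7.29, 7.33, 7.30 and 7.31 with NRCWE-043. The lowest NRCWE-044 array was just above the highest NRCWE-043 array, and the difference was 0.71 (SE 0.20, adjusted p = 0.017). NRCWE-043 differed from the controls by -0.83 (adjusted p = 0.0055) and NRCWE-044 by -0.11 (adjusted p = 0.83), values that share the controls and were -0.95 and -0.23 without control array 7. Of 11 club cell markers 2 were higher with NRCWE-044, the other being the stress gene Nupr1 at 0.65 (SE 0.21, adjusted p = 0.049), with a median of 0.28. Of 29 alternatives, 18 ended the Nupr1 call and 8 that of Scgb1a1. Pigr, which carries antibodies across the epithelium, was the 1 call of 15 mucous airway markers, at 0.99 (SE 0.23, adjusted p = 0.0041), with a second probe at 0.02. The anion exchanger Slc26a4 was at 1.04 (95% interval -0.46 to 2.55, adjusted p = 0.52). Of 17 ciliated cell markers 0 were called in limma (0 at an unadjusted p under 0.05), with Rsph4a at 0.45 (95% interval -0.11 to 1.00, adjusted p = 0.42) and Dnah5 at -0.42 (95% interval -0.91 to 0.07, adjusted p = 0.38).

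In the alveoli Aqp5, the water channel of type 1 cells, was lower, at a difference of -0.70 (SE 0.14, adjusted p = 0.00074), with a second probe at -0.11 (adjusted p = 0.81), and Gprc5a higher by 0.61 (SE 0.14, adjusted p = 0.0037), the 2 calls among 12 type 1 markers. Of 17 type 2 markers the surfactant gene Sftpa1 was higher by 0.65 (SE 0.18, adjusted p = 0.019) and the phospholipid enzyme Lpcat1 lower, at a difference of -0.56 (SE 0.18, adjusted p = 0.044), and Sftpc was at 0.52 (95% interval 0.06 to 0.98, adjusted p = 0.19). Among 21 endothelial markers 2 were higher, the receptor partner Ramp2 by 0.90 (SE 0.23, adjusted p = 0.01) and the tight junction gene Cldn5 by 0.51 (SE 0.15, adjusted p = 0.026). Of 17 fibroblast and smooth muscle markers Acta2 was higher by 0.58 (SE 0.18, adjusted p = 0.039) and Npnt lower, at a difference of -0.73 (SE 0.22, adjusted p = 0.035), with a second Npnt probe at -0.19 (adjusted p = 0.57). Of 29 alternatives, 17 ended the call of Lpcat1, 16 that of Acta2, 13 that of Cldn5, 9 that of Npnt and 8 that of Sftpa1. The medians of these 4 lists were 0.06, 0.20, 0.06 and 0.24. Of 10 erythroid and platelet genes 0 were called (2 at an unadjusted p under 0.05), with the globin genes Hba-a1 at 0.62 (95% interval 0.17 to 1.07, adjusted p = 0.086) and Hbb-bt at 0.51 (95% interval -0.03 to 1.05, adjusted p = 0.31). Apoa2, a liver apolipoprotein, was lower, at a difference of -0.77 (SE 0.19, adjusted p = 0.0054), with a second probe at -0.11 (adjusted p = 0.90), the 1 call among 11 markers of oesophagus, thyroid and liver.

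Heart and fat genes varied widely between arrays of 1 group. The heart gene Tnnt2 was at 0.87 (95% interval -0.81 to 2.55, adjusted p = 0.67), the fat hormone Adipoq at 0.67 (95% interval -0.97 to 2.31, adjusted p = 0.76) and Cidea, of brown fat, at 0.67 (95% interval -0.45 to 1.78, adjusted p = 0.6), where the means ± SD (n = 5) were 1.23 ± 0.60 with NRCWE-043 and 1.90 ± 2.26 with NRCWE-044. Myh7, of the heart, was at -0.74 (95% interval -1.39 to -0.08, adjusted p = 0.2), and the thymus and lymph node list held 0 of 6 called in limma (1 at an unadjusted p under 0.05), with Cxcl13, a chemokine of lymphoid tissue, at 0.72 (95% interval -0.13 to 1.57, adjusted p = 0.39) and the thymus gene Ptcra well above background on no NRCWE-043 array and 3 NRCWE-044 arrays. With the heart and fat means as covariates 1824 features were called in place of 1954.

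The same materials at 18 µg were measured on 10 other arrays, which share none with the 54 µg comparison. There 2777 features were called (10.9%), 1381 higher (5.41%) and 1396 lower (5.47%) with NRCWE-044. Of the 1954 features called at 54 µg, 1938 had the same sign at 18 µg and 1315 were called with it, which is 67.3% of the 54 µg calls and 47.4% of the 18 µg calls, and 0 were called with the opposite sign. Across all features the differences at both doses correlated at Pearson's r = 0.80, which describes these arrays, since genes are not independent replicates. The clock genes repeated: Dbp was at -4.53 (adjusted p = 9.4e-06), Nr1d1 at -3.72 (adjusted p = 9.7e-07) and Arntl at 2.43 (adjusted p = 6.8e-05), and 7 of 13 E-box genes were lower and 3 of 5 of the Bmal1 arm higher. Hmox1 was at -2.33 (adjusted p = 6.7e-06), H2-Q4 at 3.01 (adjusted p = 2.1e-07), Slc26a1 at 2.38 (adjusted p = 3.5e-05), Epha1 at -2.04 (adjusted p = 9.7e-07) and Bax at -1.29 (adjusted p = 0.00062).

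**Figure D5:**
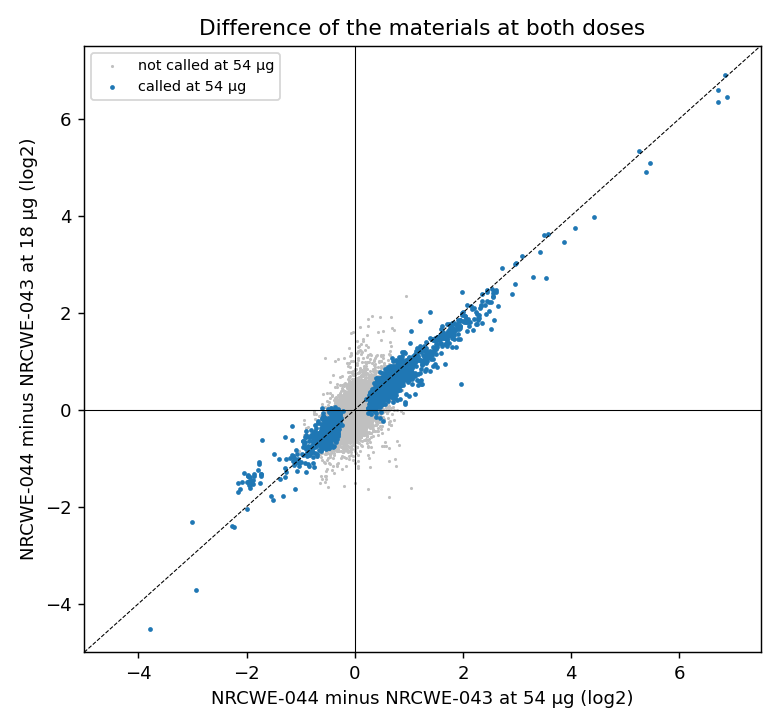
Difference NRCWE-044 minus NRCWE-043 at 54 µg (horizontal) and at 18 µg (vertical), in log2 units, for 25534 features; blue points were called at 54 µg, grey points were not, and the dashed line marks equal differences. The called features lie along the line, 1938 of 1954 with the same sign at both doses.

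Some lists held more calls at 18 µg than at 54 µg. Heat shock chaperones were higher with NRCWE-044 in 12 of 18, among them Hspb1 at 1.01 (adjusted p = 0.00045), and 6 of 21 T and NK cell and 6 of 14 B and plasma cell markers were lower, such as Cd3d at -1.03 (adjusted p = 0.0016). Ccl7 was lower with NRCWE-044 at 18 µg, at -1.51 (adjusted p = 0.014), and Cxcl5 was at 0.54 (adjusted p = 0.61). The difference between doses itself was called for 0 of 25534 features in limma (822 at an unadjusted p under 0.05).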

How the data were processed

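Lung RNA (Cy5) and a universal mouse reference (Cy3) were hybridised together on 35 Agilent arrays, in 7 groups of 5, with the same dye orientation throughout, per the labels. The deposited intensity values are median spot and background signals from Feature Extraction, per the file headers. The deposited log2 ratios of the series were used as an alternative; no source used here gives the normalization that the authors applied. Signals were background-corrected (normexp, offset 50), control spots and outlier spots got weight 0, and ratios were normalized within arrays by loess in limma 3.58.1 (R 4.3.3). Probes were kept if the lung signal stood well above background on 3 or more of 5 arrays of any group, the brightest standing for its gene, which left 25534 features. Means of the 7 groups were fitted over 35 arrays with lmFit and eBayes, with Benjamini-Hochberg adjustment over all features. Symbols came from RefSeq through unversioned transcript accessions (27235 of 55681 probes). The fit was tested on simulated data. Alternatives covered background, normalization, filters, probes, slide, spread, left-out arrays and covariates. Named genes were the 15 largest in each direction with arrays apart, up to 4 called members of each list (or the 2 largest), a fixed set, and 10 added after their values were seen. The comparison, members and lists were chosen with earlier results of these data known. The values of 1 list member are not reported here.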

Additional observations from a re-analysis of the deposited data

Results flagged for a closer look

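In 17 of 262 groups of 5 arrays, 1 array lay far from the other 4 by Dixon's test, and chance gives about 1 in 20. With NRCWE-043, array 22 was low in Ccl24 at -1.17 and high in Gprc5a at 3.83 and Hspb1 at 2.00. NRCWE-043 array 3 was low in Ccl8 at 2.45, Ear2 at 6.10 and Scgb1a1 at 6.88, and array 16 was low in Il1b at 1.83. With NRCWE-044, array 34 was high in BC061237 at 1.01 and Irf7 at 1.30, and array 4 was high in Cidea at 5.89 and Srxn1 at -0.98. NRCWE-044 array 24 was low in Cplx2 at 2.19, Pigr at 1.07 and Sox5 at 1.94, and array 31 was high in Erap1 at 0.99 and low in Il6 at -1.65 and Tap2 at 0.13. All are log2 ratios to the reference, and their causes were not tested.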

How the results depend on the processing

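At 54 µg 1954 features were called. Median centring in place of loess gave 853 (median of all features -0.18) and a 1.5-fold minimum 1026. Leaving out NRCWE-044 arrays 4, 18 and 34, with only arrays 24 and 31 left in that group, gave 663. The clock score as a covariate gave 18, with the median SE rising from 0.126 to 0.187. Leaving out 1 array at a time gave 1464 to 1877. At 18 µg, where 2777 were called, median centring gave 522, the compared arrays alone 1225, a 1.5-fold minimum 1121, the clock covariate 0 and leaving out 1 array 2042 to 2898. The Cy5 channel alone moved the share of higher calls at 18 µg from 49.7 to 38.9%, and median centring to 77.6%. Of 72 named and called genes, 31 kept their call under every alternative but the clock covariate, as did 29 of the 30 largest, Gm5176 being the exception. Signs turned under median centring for Slc30a4 (-0.0048) and Lpl (-0.0075), and with Cy5 alone for Gprc5a (-0.286) and Cldn5 (-0.025). With the clock covariate they turned for Arntl (-0.352), Cdkn1a (-0.314), Nfil3 (-0.060), Nupr1 (-0.360), Hlf (0.152) and Per3 (0.315). Of these, Arntl, Nfil3, Hlf and Per3 are members of the clock score, so their change under it was built in and tests nothing. The causes were not tested. Leaving control array 7 out of the spread, chosen after seeing the data, gave 2073. The labels give no pairing of arrays, since the groups share no replicate numbers. By the file headers, NRCWE-044 arrays 31 and 34 and NRCWE-043 array 9 lay on slides without the other material at 54 µg. Arrays 31 and 34 were also scanned on days when no NRCWE-043 array at 54 µg was, so material is partly confounded with slide and scan day. With slide as a fixed or random block 2048 and 2378 were called.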
